A study of Mus musculus with 2 samples.

Results

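Nfkb2, Mrc1, Mrc2 and Stap2 are 4 mouse genes of NF-kappa-B signalling, macrophage-type receptors and adaptor proteins, and each had 1 listed region in hippocampal DNA. Their 4 regions were all those carrying 1 of these symbols among 276 distinct regions, which the table assigns to 296 gene symbols. The genes were chosen by their methylation losses in the table itself, where the regions ranked 3 (Nfkb2), 4 (Mrc2), 8 (Mrc1) and 9 (Stap2) by size among the 73 regions that were lower in the choline library. The direction and size of these losses are therefore a description and were not tested. 3 regions lay within introns, and the Nfkb2 region lay at an alternative transcription start.

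DNA was profiled by reduced representation bisulfite sequencing (RRBS), in which the enzyme MspI cuts at CCGG, short fragments are sequenced after bisulfite conversion, and each CpG is read as methylated or unmethylated. The choline library (F1m-GCS) came from offspring whose dams ate feed containing choline chloride at 5 g/kg between embryonic day 9 and birth. The control library (F1m-CON) came from offspring of dams whose feed contained 1.1 g/kg. Offspring of both groups ate basal feed after birth and were tested for mood-related behaviour at 2 months. The sources used here do not state the strain, the age at which tissue was taken or how many animals each library pooled. With 1 library per group there was no measure of variation among animals and no test of the diets. Intervals below cover counting error alone.

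NF-kappa-B factors are dimers held inactive in the cytoplasm by inhibitors and released to the nucleus after signals from cytokine and pattern-recognition receptors. Nfkb2 encodes the precursor p100, which itself acts as an inhibitor and is cut to the DNA-binding subunit p52 in the non-canonical pathway. Mrc1 encodes the macrophage mannose receptor CD206, an endocytic receptor for sugar-bearing ligands that marks perivascular macrophages in brain. Mrc2 encodes a related endocytic receptor for collagen found mainly on fibroblast-like cells, and Stap2 encodes an SH2-domain adaptor that acts in cytokine signalling through STAT3 and NF-kappa-B. Of the 4, Mrc1 is the gene best known as a macrophage receptor. Hippocampal DNA is a mixture of cell types, so a lower level within cells and a changed mixture of cells cannot be told apart.

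The Nfkb2 region lies in a CpG-rich stretch around alternative starts, and its sequence context is shown because it is the member region that touches a promoter. As deposited, the region spans 131 bp (chromosome 19, 46380292 to 46380422) with 5 CpG sites. The deposited promoter lines give 2 starts that are 235 bp apart on the plus strand. The region ran from 107 to 237 bp after the first of these and from 128 bp before to 2 bp after the second, counting the start base as 0. It lay wholly inside the 309 bp 5' UTR line of transcripts from the first start. Of its 131 bp, 128 were also in a 1109 bp intron whose length matched intron 1 of 22 in the RefSeq transcripts that begin farther upstream. RefSeq (GRCm38.p6) has 3 Nfkb2 promoter windows of 300 bp, and 2 of their starts have the same spacing of 235 bp. The following RefSeq sequences are given 5′ to 3′ on the plus strand. The first is the 250 bases before the first of those starts (chr19:46305445-46305694) and has its 19 CpG in capitals. The second is a 20-base stretch (chr19:46305700-46305719) with a match to the kappa-B consensus, the DNA site bound by NF-kappa-B, in capitals. The third is 30 bases from the MspI site that precedes the region's position (chr19:46305796-46305825), with 4 CpG in capitals.
Nfkb2 before the first start: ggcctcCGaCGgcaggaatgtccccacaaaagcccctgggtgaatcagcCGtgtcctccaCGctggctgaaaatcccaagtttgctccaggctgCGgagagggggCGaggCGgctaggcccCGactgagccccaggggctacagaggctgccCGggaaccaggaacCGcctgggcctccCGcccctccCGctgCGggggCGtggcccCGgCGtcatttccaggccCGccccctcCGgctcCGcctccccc
Nfkb2 kappa-B match: ttttcGGGACTTTCCtaagc
Nfkb2 MspI site: cCGgaCGggCGgctggaggagatCGgaccc

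In the RefSeq window of the second start, 5 CpG had at least 1 base between 128 bases before and 2 bases after that start, the number deposited for the region. The first 3 of these stand close together, with their C at 129, 125 and 111 bases before the start, followed by 1 at 18 bases before it and 1 at 1 base after it. MspI sites began 134 bases before and 29 bases after the start, which frames a fragment of about 163 bp. The kappa-B consensus was searched on both strands and was present in each of the 3 Nfkb2 windows, against 8.46% of all 32851 windows of that length. The match printed above begins 10 bases after the first start, is also the match in the overlapping window of the second start, and ends 88 bp before the region. Among the 3 windows of Mrc1 and Stap2, 1 Stap2 window held a match. A match is a sequence description and says nothing of binding in these samples.

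**Figure D1:**
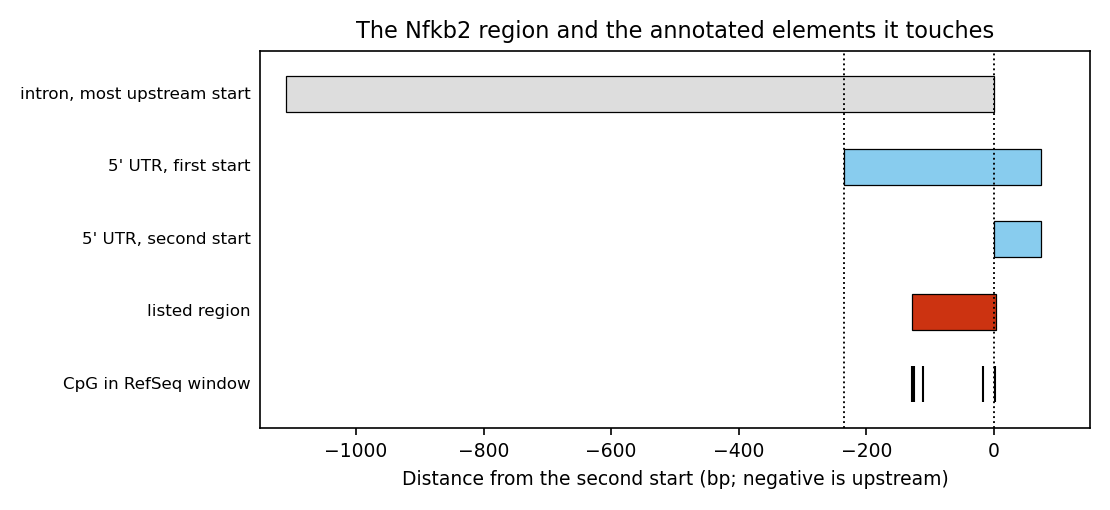
The Nfkb2 region (red) beside the deposited intron and 5' UTR lines it touches, with CpG of the RefSeq window as ticks; the horizontal axis is the distance in bp from the second start, and dotted lines mark the 2 starts. The region fills the last 128 bp before the second start and extends 2 bp past it, and 3 of the 5 CpG stand at its upstream end.

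In the Nfkb2 region, which runs up to the second deposited start, methylation was 29.2% in the control library against 5.68% in the choline library. These levels rest on 14 methylated of 48 CpG calls (exact Clopper-Pearson 95% interval 17.0 to 44.1%) and on 5 of 88 calls (1.87 to 12.8%). The choline level was 23.5 percentage points below the control level, and the ratio of control to choline was 5.13. On calls, the region was thus partly methylated in the control library and close to unmethylated in the choline library. With the mean depth, rounded, as the number of reads, the exact 95% intervals overlapped (6.67 to 65.2% and 0.141 to 27.3%). CpG-rich promoters are usually unmethylated in somatic cells, but CpG sites were sparse in this region itself (26.2 bp per site). Coverage was 9.60 reads per CpG for the control and 17.6 for choline. Only 7 of the 276 regions were shallower in the control library, so the higher of these 2 levels is also the less certain.

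The member regions in introns were more methylated in both libraries than the Nfkb2 region. The Mrc2 region, of 218 bp with 15 CpG sites (chromosome 11, 105172814 to 105173031), stood at 64.6% in the control, or 270 of 418 calls (exact 95% interval 59.8 to 69.2%). In the choline library it stood at 42.3%, or 166 of 392 calls (37.4 to 47.4%), a difference of -22.2 points. No other listed region had a control level as high as Mrc2. The ratio of control to choline was 1.53, near the smallest ratio found among the listed losses (1.51). The enclosing intron of 32600 bp matched in length intron 1 of 29 in RefSeq, and the region began 18598 bp into it, far from either exon.

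The Mrc1 region, of 134 bp with 6 CpG sites (chromosome 2, 14217401 to 14217534), was methylated at 49.3% in the control, or 67 of 136 calls (exact 95% interval 40.6 to 58.0%). The choline level was 29.9%, or 23 of 77 calls (20.0 to 41.4%), which is a difference of -19.4 points and a ratio of 1.65. Here the intervals of the 2 libraries overlapped, the only member for which they did on calls. The members were chosen as large losses and overlap was not counted over all listed regions, so nothing is read from this count. The region began 829 bp into a 9166 bp intron that matched intron 15 of 29 by length. Although Mrc1 and Mrc2 are members of the same small receptor family, their regions lay in different introns.

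The Stap2 region, of 194 bp with 8 CpG sites (chromosome 17, 56139706 to 56139899), stood at 35.9% in the control, or 74 of 206 calls (exact 95% interval 29.4 to 42.9%). Its choline level was 17.2%, or 32 of 186 calls (12.1 to 23.4%), a difference of -18.7 points and a ratio of 2.09. The intervals did not overlap. Its intron was short, 323 bp, and the region filled 60.1% of it, starting 3 bp after the upstream exon on the minus strand. By length this was intron 7 of 13 in the longer RefSeq transcripts and 6 of 11 in the shorter ones.

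**Figure D2:**
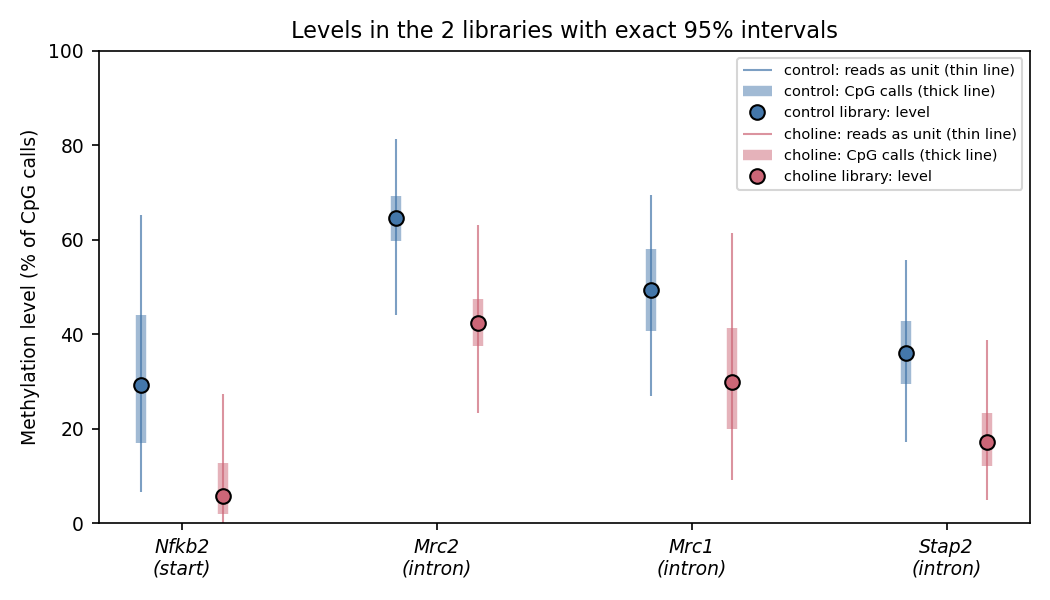
Methylation level (% of CpG calls) of each member region in the control (blue) and choline (red) library, with exact 95% intervals on CpG calls (thick lines) and with the mean depth, rounded, as the number of reads (thin lines). The choline level lies below the control level in each pair, the thick lines overlap for Mrc1 only, and the thin lines overlap for each gene.

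All 4 regions were lower in the choline library, where 26.4% of the 276 listed regions were lower. The members were picked by this loss, so nothing is read from that count. Across the 4, control levels ran from 29.2 to 64.6% and choline levels from 5.68 to 42.3%, and the order of the genes was the same in each library: Mrc2, Mrc1, Stap2, Nfkb2. The size of the loss did not follow that order, since the largest loss (23.5 points) was at the lowest level and the next (22.2 points) at the highest. The losses varied little beside the gaps between control levels, so the shared order follows largely from the choice of members. The median difference was -20.8 points over the members, beside -13.5 points over all 73 losses and 11.1 points over all listed regions.

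Depth limits how firmly each loss can be stated. CpG calls on the same read are not independent, so the mean depth gives a more cautious number of observations. On calls, the Newcombe 95% interval of the difference ran from -37.9 to -10.5 points at Nfkb2, -28.8 to -15.4 at Mrc2, -31.7 to -5.65 at Mrc1 and -27.0 to -10.0 at Stap2. With depth as the number of reads it was -54.8 to 4.55 points at Nfkb2, -44.7 to 4.06 at Mrc2, -45.5 to 13.7 at Mrc1 and -40.5 to 6.31 at Stap2. Each of the 4 intervals then included 0. Distinct reads over a region were not themselves counted. By these intervals based on depth, a loss was not detectable for any member. Such intervals were not counted over all listed regions, so nothing particular to these genes is read from this. The authors' deposited table gives adjusted p-values (Fisher's exact test on calls) of 3.25e-09 for Mrc2, 1.17e-04 for Stap2, 8.78e-04 for Nfkb2 and 0.00848 for Mrc1. These take every call as independent, compare 2 libraries and belong to the contrast that chose the members.

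Depth itself was uneven at Nfkb2 and Mrc1 and even at the other members. Mrc2 was covered 27.9 and 26.1 times in the control and choline library, and Stap2 25.8 and 23.3 times. Mrc1 was covered 22.7 and 12.8 times, 1.77 times deeper in the control, as were most listed regions. Nfkb2 was 1 of 57 listed regions deeper in the choline library. Over all regions the median depth was 24.5 (4.89 to 64.3) for the control and 15.6 (4 to 64.4) for the choline library. The part of depth in the losses was not tested at any of the 4 genes.

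**Figure D3:**
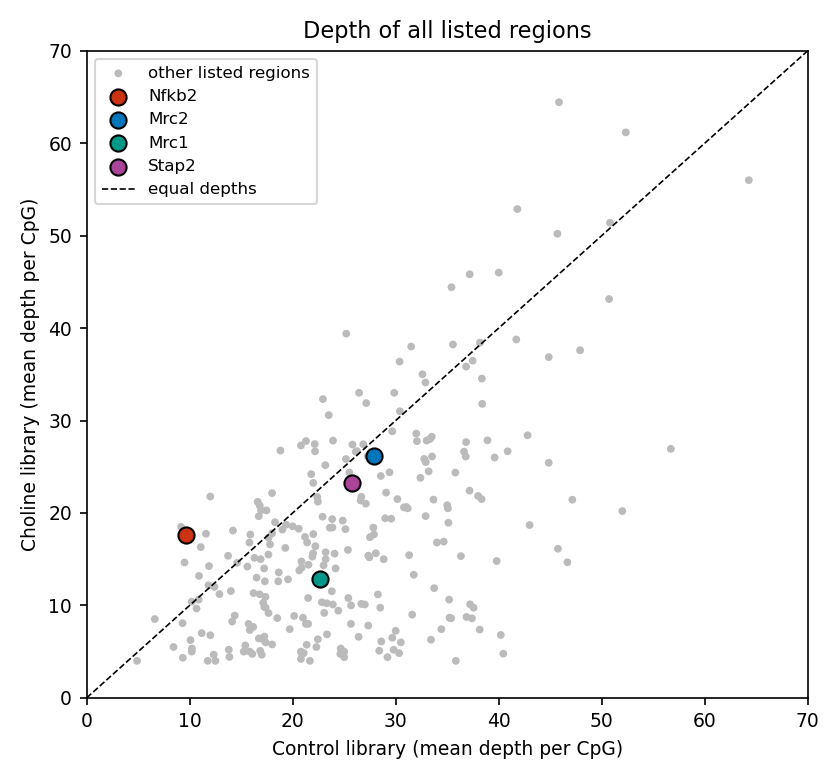
Mean depth per CpG of all 276 listed regions in the control (horizontal) and choline (vertical) library, with the members coloured and equal depth as a dashed line. Mrc2 and Stap2 lie near the line, Mrc1 below it and Nfkb2 above it at a control depth of 9.60.

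The start region was then set beside the intron regions. The Nfkb2 difference minus the median difference of the 3 intron members (-19.4 points) was -4.09 points, a gap smaller than the width of any of the intervals on calls. In the choline library 265 of the 276 listed regions were above the Nfkb2 level, 174 above Stap2, 71 above Mrc1 and 33 above Mrc2. In the control library 54 were above Nfkb2, 24 above Stap2, 4 above Mrc1 and 0 above Mrc2. High control levels and the low choline level of Nfkb2 both follow in part from choosing large losses. Among all 126 listed regions with a promoter, upstream or 5' UTR line, 28 were lower in the choline library (22.2%, exact 95% interval 15.3 to 30.5%), and their median levels were 10.9% (control) and 17.0% (choline). Of these 28, Nfkb2 had the largest loss, and the next was -20.1 points. Of 77 regions with intron lines only, 26 were lower (33.8%, 23.4 to 45.4%), and the medians over the 77 were 18.2% and 22.2%. Whether the start and intron classes differ was not tested.

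The choice of genes did not use CpG spacing or length directly, and in 3 of the 4 regions CpG sites were sparse. Spacing is not independent of the choice, however, since the listed losses were sparser than the listed regions as a whole. The members had 26.2 (Nfkb2), 24.3 (Stap2), 22.3 (Mrc1) and 14.5 (Mrc2) bp per CpG site, against a median of 11.2 over all listed regions and 14.6 over the losses. The median was 14.8 over regions with intron lines only and 10.4 over regions with a promoter, upstream or 5' UTR line. Nfkb2, Stap2 and Mrc1 were sparser than 249, 238 and 225 of the 276 regions. Nfkb2 had 5 sites, the fewest of any listed region, a number it shared with 42 others. Region lengths ran from 131 to 218 bp, around the median of 147 bp. The RefSeq windows of 300 bp at both Nfkb2 starts, of which the second contains the region itself, held 20 CpG each, more than 73.5% of all windows. Those of Mrc1 held 3 CpG and those of Stap2 held 5 and 4.

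**Figure D4:**
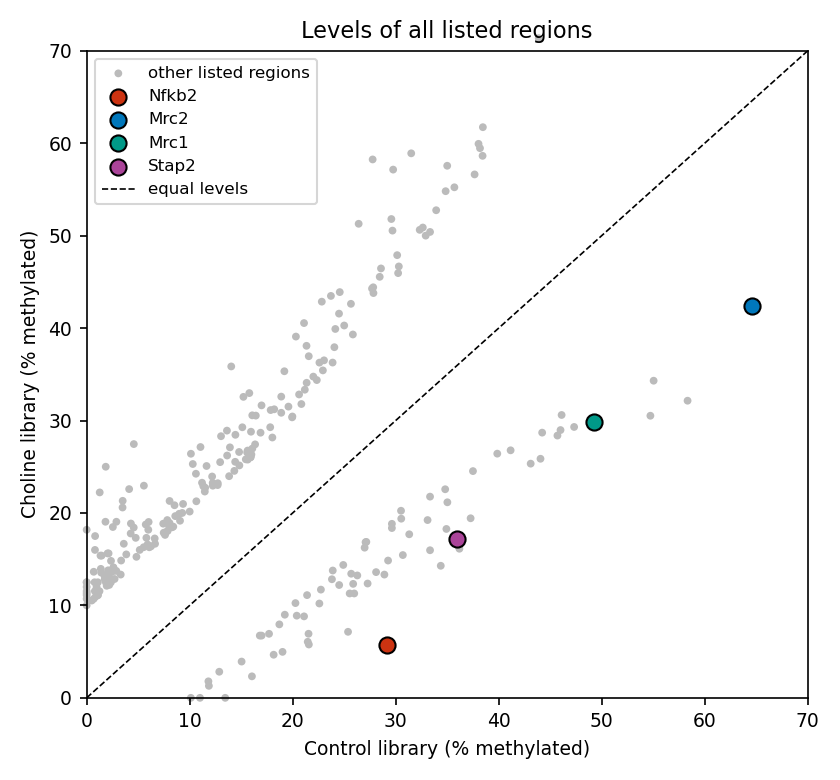
Methylation level of all 276 listed regions in the control (horizontal) and choline (vertical) library, in % of CpG calls, with the members coloured and equal levels as a dashed line. The empty band around the line reflects the listing, in which no region differed by less than 10 points, and Nfkb2 and Mrc2 lie farther from the line than Mrc1 and Stap2.

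The listed regions whose pair of levels was most like each member were taken by Euclidean distance over the 2 libraries. For Stap2 these were an intron of Rps6ka1, a MAP kinase-activated kinase (36.2% and 16.1%, distance 1.11 points), and upstream sequence of Ror2, a Wnt receptor (34.9% and 18.3%, distance 1.46). For Mrc1 they were a region shared by Pcsk1n and Eras (47.3% and 29.3%, distance 2.03) and an intron of Sorcs3, a sorting receptor of neurons (46.1% and 30.6%, distance 3.24). Nfkb2 was closest to Ptprs, a receptor phosphatase of axons and synapses (25.4% and 7.14%, distance 4.07), and to an intron of Csf2ra, a receptor chain for the cytokine GM-CSF (26.0% and 11.3%, distance 6.45). Mrc2 stood more alone, with introns of D19Wsu162e (58.3% and 32.1%) and Gmpr, a GMP reductase (55.0% and 34.3%), at 11.97 and 12.5 points. The values in each set give the control library first.

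Other genes of these pathways were looked up in lists of 131 genes, each counted once, and 5 had a listed region: the 4 members and Ltbr. The members were in the lists by choice, and without them 1 of 127 genes had a region (0.787%), beside 274 of 21900 protein-coding genes of RefSeq (1.25%). At that background, few or no genes with a region in a list of this size say nothing particular about the list. Of 5 NF-kappa-B subunit genes only Nfkb2 had one, and there was none at the 14 inhibitor genes or the 32 kinases and adaptors. Of 23 upstream receptor genes, Ltbr had one. Ltbr encodes the lymphotoxin beta receptor, which activates the non-canonical pathway that processes p100. Its region touched upstream and 5' UTR lines (chromosome 6, 125263769 to 125263957) and had 9 CpG sites. The control level was 5.56% (6 of 108 calls, exact 95% interval 2.07 to 11.7%). The choline level was 23.0% (14 of 61 calls, 13.2 to 35.5%). The difference was 17.4 points, and the choline depth was 6.78. With depth as the number of reads the interval of this difference ran from -14.2 to 54.6 points. The sign at Ltbr was opposite to that at Nfkb2, but 203 of the 276 listed regions were higher in the choline library. Nfkb2 was chosen as a loss, so nothing is read from the contrast.

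In the mannose receptor family, Mrc1 and Mrc2 had regions and the other 2 of 4 genes (Pla2r1 and Ly75) did not. None of 32 scavenger and lectin receptor genes in the macrophage list had a listed region (31 of the 32 symbols were found in RefSeq), and Stap2 was the single one among 12 genes of STAP adaptors and M-CSF signalling. Of 15 marker genes of microglia and perivascular macrophages, Mrc1 alone had one, so the methylation of the other 14 markers is not described here. The lists are not complete. Some regions outside them were named after their values were seen. Siglec15, a lectin receptor of myeloid cells, stood at 13.6% in the control against 26.2% with choline. Tnfrsf21, a death-domain receptor of the TNF receptor family, stood at 15.2% against 32.6%. Regions at Cd70 (29.3% against 14.9%) and Csf2ra (26.0% against 11.3%) were lower with choline. These are examples, and no direction is read from them. For a gene without a listed region, neither its coverage nor its level is known from this table.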

How the data were processed

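RRBS of mouse hippocampus was analysed from 1 deposited table comparing 2 libraries, whose columns were matched to samples through the titles. The series' design text names cutadapt for trimming and SOAPaligner for alignment to converted genomes, and CASAVA 1.8 appears in the submitters' processing notes. How regions were called is not given in the sources used here.

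Per the file headers, the authors' methylation fraction is given per region with the mean coverage per CpG, the count of CpG sites, and a p-value with its adjusted value. Fraction, coverage and site count multiplied to whole calls (tolerance 1e-06) in 259 of 276 regions, members included, totalling 86235 control and 60988 choline calls. The deposited p-values of the members equalled Fisher's exact test on calls within 1%. The 725 lines were reduced to distinct regions, and 70 promoter symbols that had lost letters were restored.

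The design text gives mm10 for alignment, the submitters' processing notes list mm9 as well, and the file names no build. Positions are printed as deposited, since they are not those of mm10 (GRCm38): a region on chromosome 7 ended at 148524799, past its GRCm38 length of 145441459, and 0 of the 4 members lay inside their GRCm38 gene. Introns were numbered by equal length in RefSeq. RefSeq sequences were used for the promoter windows of 3 of the 4 genes and were set beside the Nfkb2 region by distance from the start. Each number of reads is the mean depth. Promoter lines span 1000 bp on each side of a start.

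The members and gene lists were chosen with earlier results of these data known. Regions named by rule were those of the members, of listed pathway genes, and for each member the 2 of other genes closest in level. Siglec15, Tnfrsf21, Cd70 and the nearest listed region on each member's chromosome were named after the values were seen. Depth, size, CpG number, added calls or reads, and element definitions were varied. Call recovery was tested on simulated data. Python 3.11.15, pandas 2.3.3, SciPy 1.17.1 and matplotlib 3.10.9 were used.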

Additional observations from a re-analysis of the deposited data

How the results depend on the processing

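None of the alternatives turned the direction of a member. Keeping or dropping whole regions could not do so. The added calls or reads left each difference negative, but they could hardly turn losses of this size. They only pull both levels towards equal methylated and unmethylated shares. The unchanged direction is therefore no independent check. The number of member regions lower in the choline library, 4, was 1 with a minimum of 10 CpG sites, which keeps Mrc2. The share of all listed regions that were lower, 26.4%, was 32.3% at a depth of 10 or more in each library (192 regions) and 20.2% with at least 10 CpG sites (129 regions), and for the share the cause was not tested. The number of pathway genes with a region was 2 (Nfkb2 and Ltbr) when only lines at starts counted. The other 14 of 18 comparisons moved by less than their intervals or by less than 1.5 times. Among them was the count of 3 member regions at that depth, which leaves out Nfkb2. Some were fixed in advance, since a minimum difference of 15 points keeps every member (smallest loss 18.7 points). Nfkb2 was also the only member at a start under either definition. With 1 methylated and 1 unmethylated read added to each library the differences lay between -16.7 points (Mrc1) and -22.6 points (Nfkb2). No paired analysis was possible because each group had 1 library, and for the same reason no library could be left out.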

Other observations

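The nearest listed region on the same chromosome was looked up for each member after the values had been seen. The closest to Nfkb2 lay 339 kb away in an intron of D19Wsu162e, where control and choline levels were 58.3% and 32.1%, the largest loss in the table. The closest to Stap2 lay 425 kb away in Ptprs, with levels of 25.4% and 7.14%. For Mrc1 and Mrc2 the nearest regions lay 4403 kb and 1977 kb away, at BC061194 (5.73% and 18.8%) and Arhgap27 (24.0% and 37.9%), and were higher in the choline library. Of the listed regions on these chromosomes, the members included, 8 of 18 were lower on chromosome 19 and 4 of 11 on chromosome 17. On chromosomes 2 and 11, 5 of 18 and 8 of 30 were lower. Over all 276 listed regions the share was 26.4%. The members were chosen as losses, so nothing is read from these counts.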
